A study of Homo sapiens with 6 samples.

Results

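Very long protein-coding genes were taken as the autosomal protein-coding genes whose annotated end lies at least 600 kb from their annotated start in the RefSeq annotation of GRCh38. SHANK2 and genes with symbols that start with KCN, CACNA or SCN were left out by the rule. This gave 198 genes among 19126 autosomal protein-coding genes. They spanned 192 Mb in sum, with a median length of 854 kb and a range from 603 kb (TMEM117) to 2474 kb (RBFOX1). Of the 198 members, 65 were over 1 Mb and 6 were over 2 Mb. The rule used length and position only, and no measured value.

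R-loops form where nascent RNA pairs with its template DNA strand and leaves the other strand unpaired. They are best known from promoters with CpG islands and from sites where transcription ends, and they can meet the replication fork. Genes of the greatest length take many hours to transcribe, and a number of them lie at common fragile sites, regions that break when replication is slowed. Many encode adhesion proteins, receptors and scaffolds of neurons, and fibroblasts are not expected to transcribe all of them.

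The cells were IMR90, an embryonic lung fibroblast line of wild-type genotype, kept at 2% oxygen. Proliferating cells carried a control vector, senescent cells expressed ectopic Ras, and quiescent cells were starved. R-loops were mapped by MapR, which uses a fusion of RNase H and micrococcal nuclease (RH-MNase) to cut chromatin around RNA-DNA hybrids, with 1 RH-MNase library per state. The 3 RH-MNase peak lists were used, and the libraries of the background enzyme GST-MNase are not analysed here.

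Each state is 1 library of 1 cell line, so no difference between states has a replicate check and no p-value is given. The lists differ in size, with 101802 proliferating, 85564 senescent and 9736 quiescent peaks, and their read depth is unknown. Intervals given below are 95% Wilson intervals for shares and exact Poisson intervals for counts per Mb, and both cover counting error only. As a check of the cell type, gene-end peaks were counted at marker genes, although a peak is no measure of expression. They were present at 7, 6 and 3 of 8 fibroblast markers in the proliferating, senescent and quiescent lists, at 1, 0 and 0 of 3 endothelial, and at 1, 1 and 0 of 3 immune markers. Epithelial markers had them at 3, 3 and 2 of 4 genes and neuronal markers at 3, 2 and 2 of 3 genes, so the peaks alone did not set fibroblasts apart from these types.

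The sequence before the annotated start shows how different the starts of these genes are. RefSeq promoter sequence (GRCh38.p14) of the outermost start was at hand for 114 of the 198 members. Below are the 250 bases before that start, 5′ to 3′ on the strand of the gene. Runs of 4 or more G are in capitals. G-rich stretches on the unpaired strand of transcribed DNA are known to favour R-loops. The printed bases lie before the start, so RNA from that start does not cover them and the runs cannot bear on that rule. The first 4 genes had the highest-scoring proliferating peak at the start among these 114, with scores of 89, 82, 78 and 78. The last 2 genes are the longest of the 114 with no peak at the start in any list. Their positions are chr7:79453668-79453917 on the minus strand (MAGI2), chr6:20534207-20534456 on the plus strand (CDKAL1), chr6:2245606-2245855 on the minus strand (GMDS), chr2:213284214-213284463 on the plus strand (SPAG16), chr7:146116551-146116800 on the plus strand (CNTNAP2) and chr20:13995266-13995515 on the plus strand (MACROD2).
MAGI2: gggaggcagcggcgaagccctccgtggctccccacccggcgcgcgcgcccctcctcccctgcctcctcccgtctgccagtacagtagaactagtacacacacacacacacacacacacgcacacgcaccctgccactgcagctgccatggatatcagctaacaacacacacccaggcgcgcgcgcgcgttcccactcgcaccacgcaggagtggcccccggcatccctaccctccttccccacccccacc
CDKAL1: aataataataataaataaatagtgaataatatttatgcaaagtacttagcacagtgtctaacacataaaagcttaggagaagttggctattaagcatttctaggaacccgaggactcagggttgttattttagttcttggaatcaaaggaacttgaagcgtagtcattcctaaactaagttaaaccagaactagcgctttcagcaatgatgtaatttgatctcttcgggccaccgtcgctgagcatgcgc
GMDS: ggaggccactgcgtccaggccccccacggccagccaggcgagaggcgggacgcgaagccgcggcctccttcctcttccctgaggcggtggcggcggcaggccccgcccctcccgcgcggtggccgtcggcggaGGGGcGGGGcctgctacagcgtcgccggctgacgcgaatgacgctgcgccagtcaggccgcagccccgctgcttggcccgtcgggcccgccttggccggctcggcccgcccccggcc
SPAG16: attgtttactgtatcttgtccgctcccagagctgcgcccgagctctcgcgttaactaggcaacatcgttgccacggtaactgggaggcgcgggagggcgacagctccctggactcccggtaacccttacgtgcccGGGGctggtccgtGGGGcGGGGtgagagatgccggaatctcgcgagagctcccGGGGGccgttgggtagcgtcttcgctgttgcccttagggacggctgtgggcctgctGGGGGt
CNTNAP2: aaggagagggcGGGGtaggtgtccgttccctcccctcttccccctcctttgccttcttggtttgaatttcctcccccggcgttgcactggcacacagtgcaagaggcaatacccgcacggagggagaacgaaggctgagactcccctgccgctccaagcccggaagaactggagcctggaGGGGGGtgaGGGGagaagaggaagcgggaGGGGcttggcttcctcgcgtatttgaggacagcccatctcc
MACROD2: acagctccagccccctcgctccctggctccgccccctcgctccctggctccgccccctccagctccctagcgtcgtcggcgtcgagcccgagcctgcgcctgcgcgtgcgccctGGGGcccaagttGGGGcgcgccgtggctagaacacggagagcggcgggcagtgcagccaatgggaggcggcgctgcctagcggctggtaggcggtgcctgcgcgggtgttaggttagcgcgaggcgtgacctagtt

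G runs did not follow the peaks in these 6 sequences. MAGI2, a junction and synapse scaffold, and CDKAL1, a tRNA-modifying enzyme, held 0 runs and had 2 of the highest scores. GMDS, an enzyme of GDP-fucose synthesis, held 2 runs, and SPAG16, a protein of the ciliary axoneme, held 5. The unmarked starts of CNTNAP2, a neurexin-like adhesion protein, and MACROD2, an enzyme that removes ADP-ribose, held 4 and 2 runs. GC content was 37.2% before CDKAL1, the lowest of the 6, and 80.0% before GMDS, the highest.

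Over the 114 members, the 65 with a proliferating peak at the start had a median GC content of 66.8% and a median of 21 CG dinucleotides in these 250 bases. The 49 without such a peak had 60.0% and 12. Other genes without a start peak had lower values, with medians of 47.6% and 3 over 3112 genes, while other genes with one had 65.2% and 21 over 9924 genes. A run of 4 G was present in 56 of the 65 marked and 39 of the 49 unmarked members. Of all 13150 promoter sequences of the same length, 76.0% held GGGG on the strand of the gene and 76.8% held CCCC, its complement on the other strand. Many members without a start peak therefore had GC-rich starts, and a match to GGGG is a description of the letters only.

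Gene-end peaks, those within 1000 bp of either annotated end, were less frequent in the members than over all autosomal protein-coding genes. In the proliferating list 118 of 198 members had one (59.6%, interval 52.6 to 66.2), against 76.5% of all autosomal protein-coding genes. The senescent list had one in 114 members (57.6%, 50.6 to 64.3), against 71.2%. The quiescent list marked 43 members (21.7%, 16.5 to 28.0), against 28.3%. Genes of 300 to 600 kb, the next length class with 536 genes, stood between, with 74.1%, 69.4% and 26.7%. For the quiescent list the interval of the members overlapped that of the 300 to 600 kb class (23.1 to 30.6).

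The marked end was mostly the start. Strand could be taken from RefSeq for 164 members, and 91 of them had a proliferating peak at the annotated start while 12 had one at the far end. The senescent list had 88 and 9, and the quiescent list 32 and 3. Far-end peaks were present in 25.9% of all genes with a known strand and in 7.32% (4.23 to 12.4) of the members in the proliferating list. The 300 to 600 kb class had 8.39% (6.12 to 11.4), and its interval overlaps that of the members. The share with a far-end peak was lower in each longer class up to 600 kb, as the plot of both ends by gene length shows.

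**Figure D1:**
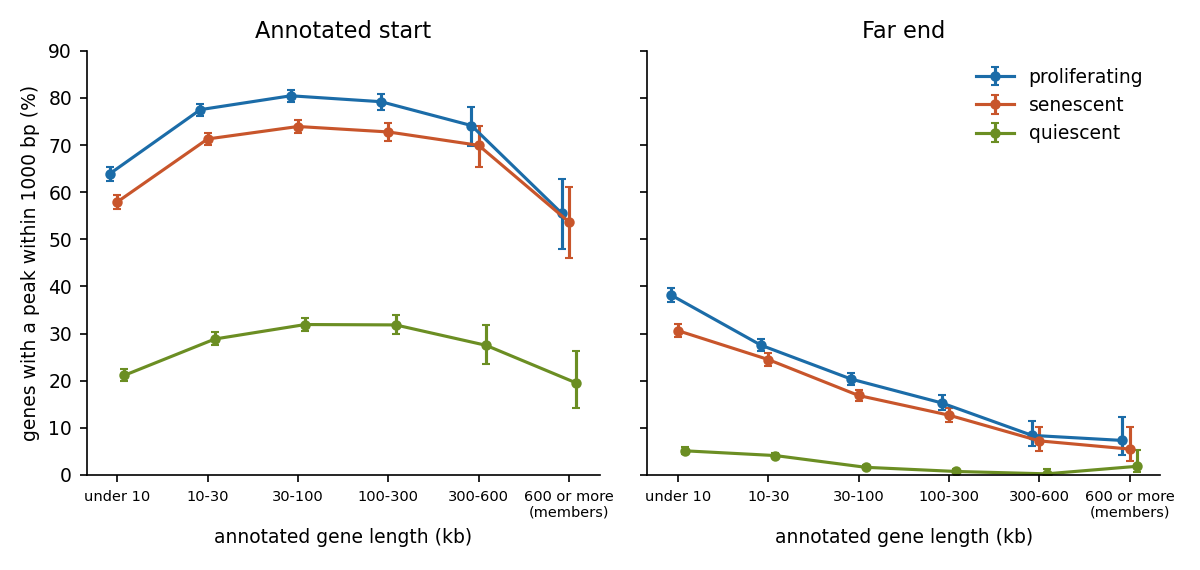
Share of genes (%, y axis) with a peak within 1000 bp of the annotated start (left) and of the far end (right), by gene length in kb (x axis), in the proliferating (blue), senescent (orange) and quiescent (green) lists, for genes with a known strand. Bars are 95% Wilson intervals. The members stand at 55.5%, 53.7% and 19.5% at the start, below the 300 to 600 kb class in each list, and at 7.32%, 5.49% and 1.83% at the far end.

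Gene-end peaks of the proliferating and senescent lists were largely found in the same members, and the quiescent list marked fewer. Of the 198 members, 102 had one in both the proliferating and the senescent list, and 43 had one in all 3 lists, which are all members with a quiescent gene-end peak. The shares of all genes marked in both or in all 3 lists were not computed. In the single lists all genes had 76.5%, 71.2% and 28.3%, each above the members. In the proliferating but not the senescent list there were 16 members (8.08%, 5.04 to 12.7), close to the 7.81% of all genes. In the senescent but not the proliferating list there were 12 (6.06%, 3.50 to 10.3), against 2.55% of all genes and 2.43% (1.42 to 4.11) of the 300 to 600 kb class. The intervals of the members and of the 300 to 600 kb class overlap.

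The senescent gene-end scores of these 12 members ranged from 12 to 26, and the median of all senescent gene-end peaks in members was 22. The highest were 26 at SNTG1, a syntrophin of the dystrophin complex, 23 at RARB, the retinoic acid receptor beta, and 22 at FRMD4A, a scaffold of cell polarity. TRPM3, a cation channel, had 21 and ASTN2, a protein of neuronal migration, had 20. CCSER1, a coiled-coil protein, had 19, and CNTN5, an adhesion protein of the contactin family, had 18. PDE4D, a cAMP phosphodiesterase, had 17. PTPRD, a receptor phosphatase, and SGCD, a sarcoglycan of muscle, each had 16. GRID1, a glutamate receptor subunit, had 13 and MARCHF1, a ubiquitin ligase, had 12. The lowest score in the lists is 10, so several of these peaks lie close to that floor.

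In quiescent cells the members with high gene-end scores were of mixed function. MAGI1, a scaffold of tight junctions, led with a quiescent score of 53, beside 69 in the proliferating and 35 in the senescent list. GMDS had 37, as did PLCB1, a phospholipase of G protein signalling. NEGR1, an adhesion protein of the IgLON family, followed with 36 and LPP, a focal adhesion protein, with 32. AGAP1, a GTPase-activating protein of membrane traffic, had 28 and SPAG16 had 27. CAST, the inhibitor of calpain proteases, PPARGC1A, the coactivator of mitochondrial biogenesis, and ZBTB20, a transcriptional repressor, each had 26. GPHN, the scaffold of inhibitory synapses, had 25, and CAMTA1, a calmodulin-binding transcription activator, had 24. KALRN, an exchange factor for small GTPases, and NBAS, a protein of transport from Golgi to endoplasmic reticulum, also had 24. Scores rank peaks within a list and are not compared between lists.

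Body peaks, those inside a gene and clear of the gene-end windows, were sparser in the members than in any class of shorter genes. The proliferating list held 2465 in members (12.9 per Mb, Poisson interval 12.4 to 13.4) and the senescent list 2083 (10.9, 10.4 to 11.3). In the quiescent list there were 82 (0.428 per Mb, 0.340 to 0.531). The proliferating density was 99.6 per Mb in genes under 10 kb, 42.2 in genes of 100 to 300 kb and 26.9 (26.2 to 27.6) in genes of 300 to 600 kb. Peaks covered 0.823%, 0.526% and 0.0156% of the members' bodies in the 3 lists, against 2.81%, 1.81% and 0.102% over all genes. Because the gene ends are a small part of such genes, 94.1% of all proliferating peaks in members were body peaks, against 73.1% over all genes.

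**Figure D2:**
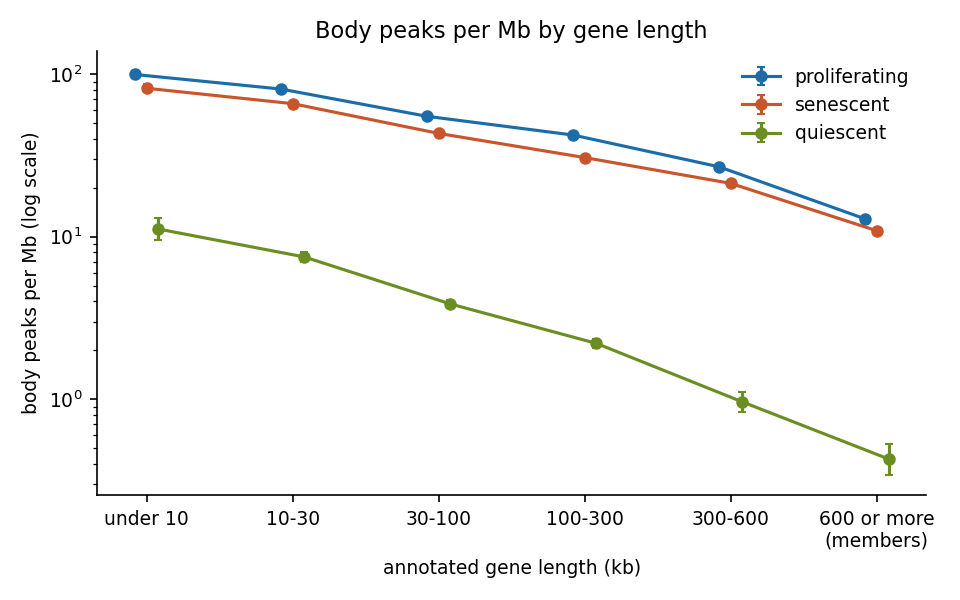
Body peaks per Mb (y axis, log scale) by gene length in kb (x axis) in the proliferating (blue), senescent (orange) and quiescent (green) lists, with exact Poisson 95% intervals, most of them smaller than the points. Density is lower in each longer class in all 3 lists and reaches 12.9, 10.9 and 0.428 per Mb in the members.

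The members differed widely among themselves. The median member had 6 body peaks in the proliferating list and 6 in the senescent list, and the median density was 7.75 and 7.13 per Mb. The 10 members with the most body peaks held 26.0% of all in the proliferating and 26.5% in the senescent list. Body peaks were absent from 30, 35 and 148 members in the proliferating, senescent and quiescent lists (15.2%, 17.7% and 74.7%). Over all genes long enough to have a body the shares without one were higher, at 42.3%, 47.9% and 88.3%. In the 300 to 600 kb class they were 12.5%, 13.1% and 75.4%. Density followed length only loosely (Spearman -0.32 in the proliferating and -0.29 in the senescent list, across 198 members). It followed the number of ends of other annotated genes per Mb inside the member more closely (0.52 and 0.54). The order of the members was nearly the same in both lists (0.95), and these coefficients describe members of single libraries.

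CAMTA1 (chromosome 1, 6785454 to 7769706) had the most proliferating body peaks, with 100 in the proliferating, 100 in the senescent and 4 in the quiescent list. RANBP2 (chromosome 2, 108719482 to 109842301), a SUMO ligase of the nuclear pore, had 93, 106 and 3, the most in the senescent list. The annotated extent of RANBP2 is 1123 kb in this table and holds 35 ends of other annotated genes, so its body is shared with neighbours. This extent, like the 813 kb of CAST, is far longer than the usual transcript of the gene, and the body peaks counted for both may lie outside that transcript. NAV2 (chromosome 11, 19345236 to 20121601), a protein of the neuronal cytoskeleton, had 73, 54 and 2. FRMD4A (chromosome 10, 13643706 to 14330924) had 62, 50 and 3. NTM, an IgLON adhesion protein, had 58, 44 and 1, and FOXP1 (chromosome 3, 70954708 to 71583978), a forkhead transcription factor, had 56, 25 and 3. Per Mb the proliferating order was CAMTA1 (102), NAV2 (94.3), FRMD4A (90.5), FOXP1 (89.3) and RANBP2 (83.0). In the senescent list it was CAMTA1 (102), RANBP2 (94.6), FRMD4A (73.0), NAV2 (69.7) and CDH4 (53.9), a cadherin.

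At the other extreme, 18 members had no peak at an end or in the body in either the proliferating or the senescent list. The longest of the 18 members was PCDH15, the cadherin of hair-cell tip links, at 1825 kb. DPP10, a subunit that modulates potassium channels, spans 1403 kb, and LINGO2, a leucine-rich repeat membrane protein, 1276 kb. AGBL1, a carboxypeptidase, spans 952 kb, and the adhesion protein THSD7B and the secreted NELL1 span 912 and 906 kb. GRM7, a metabotropic glutamate receptor, spans 880 kb. MDGA2, a regulator of synapse formation, TMEM132D, a transmembrane protein, and UNC13C, a factor of vesicle release, complete the 10 longest with 836, 832 and 796 kb.

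The 10 longest members, PCDH15 among them, held few peaks for their length. RBFOX1, a splicing regulator and the longest at 2474 kb, had a single peak in the 3 lists, at its start in the proliferating list with a score of 25. CNTNAP2 at 2304 kb had 0, 1 and 0 body peaks in the proliferating, senescent and quiescent lists. PTPRD at 2299 kb had 3, 2 and 0, and DLG2, a scaffold of the postsynaptic density, had 8, 13 and 0 over 2173 kb. CSMD1, a membrane protein that regulates complement, had 0, 1 and 0 over 2060 kb. MACROD2 had 4, 12 and 0 over 2058 kb. EYS, a photoreceptor matrix protein, had 6, 6 and 0. LRP1B, an endocytic receptor, had 4, 3 and 0, and CTNNA3, an alpha-catenin, had 2, 6 and 0. Over all members, the longest stretch without a peak had a median of 423 kb in the proliferating and 444 kb in the senescent list, and 82 and 90 members had one of over 500 kb.

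Members with a gene-end peak had more body peaks per Mb. In the proliferating list the median was 10.3 per Mb (quartiles 4.57 to 23.1) in 118 members with a gene-end peak and 3.34 (0.500 to 10.6) in 80 without. The senescent medians were 9.91 in 114 members and 3.06 in 84. The separation was not complete, since 60 members had proliferating body peaks without a gene-end peak, NTM with 58 and FRMD4A with 62 among them. NEGR1 was the reverse, with a proliferating end score of 55 and no proliferating body peak.

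Grouped by the role of their product, the 16 listed nuclear proteins, which bind DNA or RNA, had the highest density, with 25.2, 19.4 and 1.14 body peaks per Mb in the proliferating, senescent and quiescent lists. Gene-end peaks were present in 13, 10 and 5 of them (81.25%, 62.5% and 31.25%), against 76.5%, 71.2% and 28.3% of all genes. ZFHX3, a zinc finger homeobox factor, had 48, 44 and 2 body peaks, and GLIS3, a zinc finger factor of the kidney and pancreas, had 37, 20 and 1. RBFOX1, with none, belongs to the same list. CAMTA1, FOXP1 and ZFHX3 had the most of the 376 proliferating body peaks of this list.

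The 22 scaffold and cytoskeleton genes had 12.9, 11.0 and 0.372 body peaks per Mb. Their gene-end peaks, in 16, 17 and 5 genes, gave shares of 72.7%, 77.3% and 22.7%, against 76.5%, 71.2% and 28.3% of all genes. LPP had 56, 26 and 0 body peaks. DLGAP1, a scaffold of the postsynaptic density, had 31, 23 and 3, and PARD3, a polarity protein, 28, 20 and 0. The 9 signalling enzymes had 12.6, 9.57 and 0.668 per Mb, and each of the 9 had body peaks in the proliferating and senescent lists. Among them PDE4D had 26, 20 and 2, PRKG1, the cGMP-dependent kinase, 17, 10 and 3, PDE1C, another phosphodiesterase, 16, 9 and 1, and PLCB1 16, 10 and 0.

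The 44 adhesion and synapse genes formed the largest list and had 7.81, 6.85 and 0.286 body peaks per Mb. Gene-end peaks were present in 19, 17 and 6 of them (43.2%, 38.6% and 13.6%), the lowest share of the listed roles in the proliferating list. Over all genes the shares were 76.5%, 71.2% and 28.3%. NTM, CDH4 with 41, 37 and 1 body peaks, TENM4, a teneurin, with 39, 40 and 2, and CDH13, a cadherin without a cytoplasmic part, with 38, 19 and 0 stood far above the median of 2.98 per Mb. The 20 receptors and channels had 5.16, 5.79 and 0.0478 per Mb, and they were the only one of the 7 role lists with more senescent than proliferating body peaks, 121 against 108. Of the 20, 8 had fewer, 5 more and 7 equal senescent numbers, and without GRID1 the list had 100 senescent against 102 proliferating body peaks. PTPRM, a receptor phosphatase of cell contacts, had 27, 23 and 0 and PTPRG, a related phosphatase, 13, 11 and 0. GRID1 and ALK are described with the comparison of states.

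The 14 enzymes and transporters had 7.46, 6.41 and 0.131 per Mb. SUGCT, a mitochondrial CoA transferase, had 20, 16 and 0 body peaks, and FHIT, a dinucleotide hydrolase, had 11, 15 and 1. The 6 matrix and secreted proteins had 8.64, 6.55 and 0.279 per Mb, with GPC6, a glypican, at 26, 16 and 2, ADAMTSL1 at 23, 18 and 0, and LAMA2, a laminin chain, at 4, 5 and 0. The other 67 members were in no list and had 19.1, 16.1 and 0.593 per Mb, and transcription factors such as RARB and SOX6 are among them because the lists are not complete.

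The 29 members listed as common fragile site genes had gene-end peaks in 23, 21 and 6 (79.3%, 72.4% and 20.7%). All autosomal protein-coding genes had them in 76.5%, 71.2% and 28.3%. The fragile site genes had 6.44, 5.58 and 0.221 body peaks per Mb. The other 169 members had 14.6, 12.3 and 0.483 per Mb, with gene-end peaks in 95, 93 and 37 (56.2%, 55.0% and 21.9%). The lists were not matched on length. MAGI2 had 19, 16 and 0 body peaks, RORA, a nuclear receptor of the circadian clock, 28, 19 and 3, and PRKG1, CDH13 and FHIT belong to the same list.

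Body peaks were not spread evenly along the members but lay towards the far end. Of 2185 proliferating body peaks in the 164 members with a known strand, 1432 (65.5%, 63.5 to 67.5) lay in the distal 50% of the gene, the part nearer the far end. The senescent share was 64.6% (62.4 to 66.7) and the quiescent share 62.8% (51.7 to 72.7, 78 peaks). In genes of 300 to 600 kb the proliferating share was 51.5% (50.1 to 52.9) and the senescent share 51.6%. Genes of 100 to 300 kb had 48.6% and 49.5%. In 10 equal parts of the gene, the proliferating density went from 9.11 per Mb (7.69 to 10.7) in the first to 23.0 (20.7 to 25.5) in the last, with the lowest value, 7.48, in the third. The senescent density went from 8.61 to 17.7 per Mb.

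**Figure D3:**
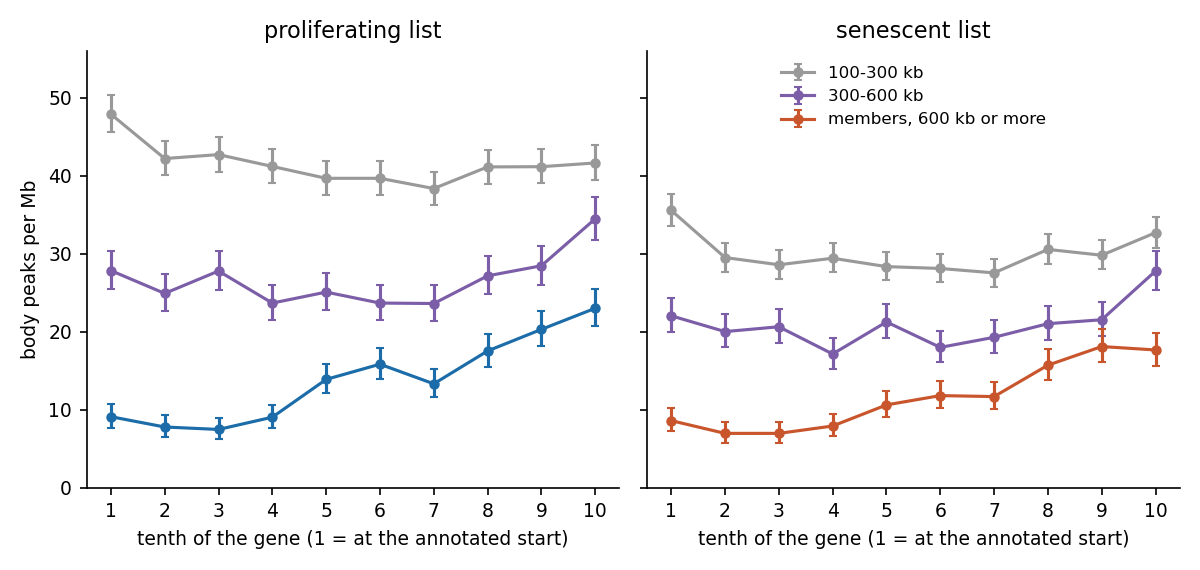
Body peaks per Mb (y axis) in 10 equal parts of the gene from the annotated start (x axis), for members (blue in the proliferating panel, orange in the senescent panel), genes of 300 to 600 kb (purple) and genes of 100 to 300 kb (grey), with exact Poisson 95% intervals. In members the density is 9.11 per Mb in the first part and 23.0 in the last in the proliferating list, and 8.61 and 17.7 in the senescent list. The 2 shorter classes stay flatter.

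This skew was shared by most members with enough peaks to show it. Of 104 members with at least 5 proliferating body peaks, 76 had more in the distal 50%, 26 had more in the proximal 50% and 2 had equal numbers. In the senescent list it was 62 against 32 of 100, with 6 equal. In the 300 to 600 kb class the proliferating numbers were 125 against 108 of 250. Without the 10 members with the most body peaks, an alternative chosen after the data were seen, the shares were 64.8% and 64.7%.

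GPHN (chromosome 14, 66508147 to 67735355) had all of its 27 proliferating and all of its 27 senescent body peaks in the distal 50% of the gene, and its longest empty stretches were 712 kb and 650 kb. ZFHX3 had 1 proliferating body peak in the proximal and 47 in the distal 50%. DLGAP1 had 3 and 28, and its longest empty stretch was 450 kb. RARB had 0 and 7, and EYS 0 and 6. The opposite order was seen in PRKG1, with 14 proximal and 3 distal peaks, and in LPP, with 37 and 19. NAV2 was even, with 35 and 38.

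**Figure D4:**
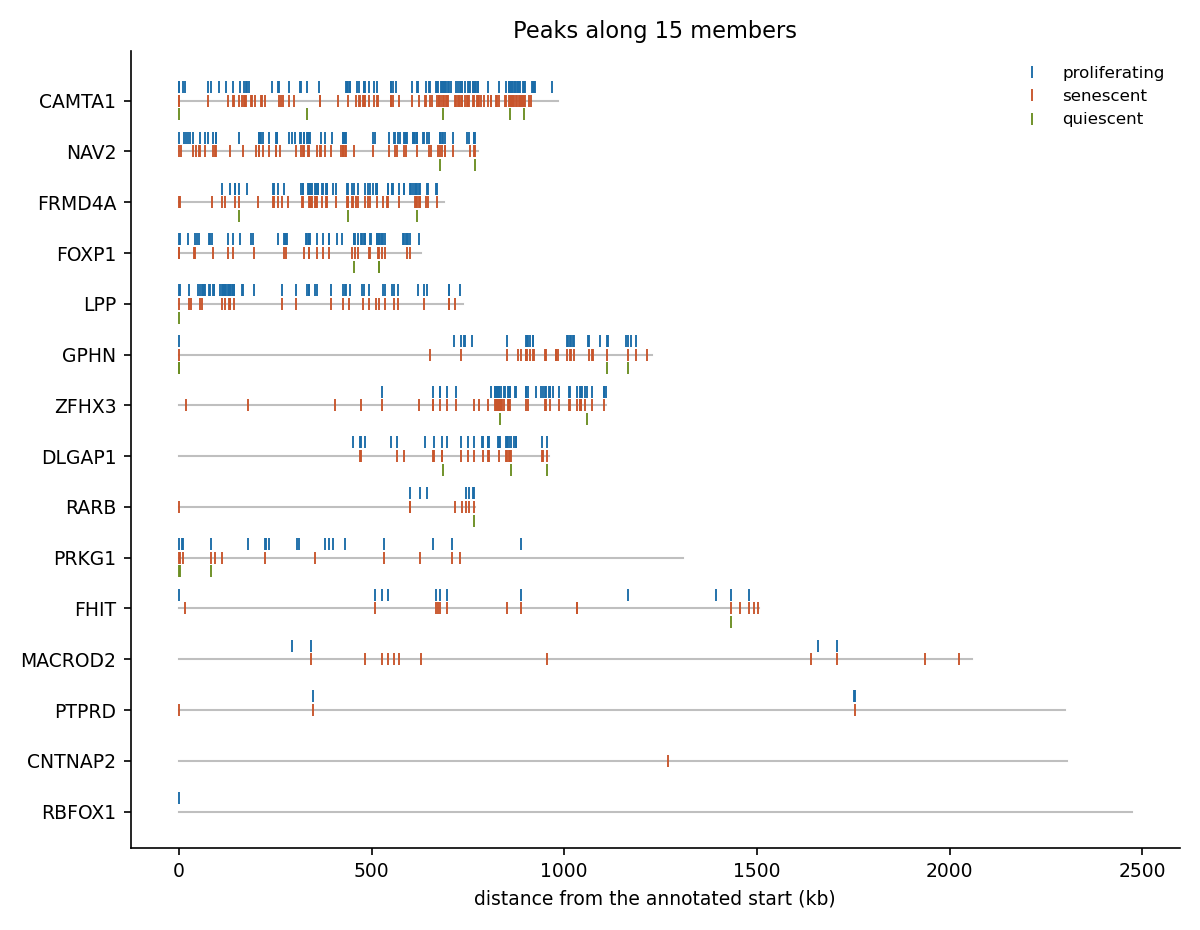
Peaks along 15 members, with the distance from the annotated start in kb (x axis), 1 row per gene and 1 tick per peak in the proliferating (blue), senescent (orange) and quiescent (green) lists. The grey line is the annotated gene. GPHN, ZFHX3 and DLGAP1 are empty over most of their proximal 50% in the proliferating list, CAMTA1 and NAV2 are filled along their length, and RBFOX1 shows 1 proliferating peak at its start.

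Annotation values by position were as follows. Of the ends of other annotated genes inside members with a known strand, 1064 lay in the distal and 932 in the proximal 50%, a distal share of 53.3%. Of the 264 own internal transcription starts, 55.7% were distal. From the annotated start on, the 10 parts held 42, 18, 15, 16, 26, 33, 37, 30, 34 and 13 of them. Without peaks within 1000 bp of an end of another gene the distal shares were 65.4% in the proliferating and 64.3% in the senescent list. Members with a proliferating peak at their annotated start had 60.7% (58.1 to 63.2) of 1421 body peaks in the distal 50%, and members without one had 74.6% (71.4 to 77.6) of 764. The surroundings differed as well. The 100 kb before the start held 16.8 proliferating peaks per Mb (14.8 to 18.9), the first 100 kb inside 11.1 (9.53 to 12.8), the last 100 kb inside 26.7 (24.2 to 29.3) and the 100 kb beyond the far end 27.2 (24.7 to 29.9). In genes of 300 to 600 kb the 100 kb before the start held 29.97 proliferating peaks per Mb (28.3 to 31.7). The 100 kb beyond their far end held 41.77 (39.8 to 43.8). Their first and last 100 kb inside held 28.89 and 31.86, and their proliferating distal share was 51.5%. In both classes the density beyond the far end was above that before the start. The part of start use and of the surrounding region in the skew of the members was not tested.

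Internal starts, the annotated starts of shorter transcripts, were marked in part. Of 264 such starts in 108 members, 130 (49.2%, 43.3 to 55.2) had a proliferating peak within 1000 bp, 115 (43.6%) a senescent and 27 (10.2%) a quiescent peak. The outer annotated start had a proliferating peak in 55.5% (47.8 to 62.9) of members and 74.6% of all genes with a known strand. Starts that lie close together share a peak. ROBO1, the receptor for Slit guidance cues, had no gene-end peak in any list, but an internal start 749 kb from the outer one carried scores of 83, 27 and 24 in the proliferating, senescent and quiescent lists. ASTN2 had 62, 37 and 34 at an internal start 728 kb inside, and KLF12, a zinc finger repressor without a gene-end peak, had 52, 23 and 52 at one 172 kb inside. ESRRG, an orphan nuclear receptor, carried 53, 49 and 29 at 414 kb, and ADGRL2, an adhesion receptor of the latrophilin family, 49, 32 and 23 at 495 kb. PDE4D, a gene known for its many promoters, carried 52, 25 and 14 at a start 1483 kb inside and 36, 24 and 28 at one 935 kb inside.

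Where the outer start was unmarked and an internal start was marked, body peaks were denser beyond the first marked internal start. In 27 such members the proliferating density was 10.8 per Mb (9.10 to 12.8) before it and 29.0 (26.2 to 32.0) beyond it, and 23 members had the higher density beyond and 4 before. The senescent values were 6.84 and 19.6 per Mb in 24 members, 18 with more beyond and 5 with less. KAZN, a protein of desmosomes, had 12.8 proliferating peaks per Mb before and 79.2 beyond a start at 706 kb, and FRMD4A 37.5 and 135 around a start at 322 kb. PDE4D had 0 peaks over the first 628 kb and 25 beyond. These members were picked by where peaks lie in the same list, so the values describe them and are no test. THSD4, a matrix protein, had the reverse order, with 121 and 42.0 per Mb around a start only 18.6 kb inside.

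Most body peaks lay near no annotated start or end. The windows around such sites take up a small part of the bodies, and that part was not computed. The shares below therefore do not show whether peaks avoid or favour these sites. Of the proliferating body peaks 6.57% were within 1000 bp of an end of another gene and 4.62% near an own internal start, and 89.7% were near neither. The senescent shares were 6.82%, 5.04% and 89.2%. In the quiescent list 23.2% and 24.4% were near such sites and 58.5% (47.7 to 68.6) near neither. Proliferating peaks near an own internal start were wider, with a median of 1148 bp against 456 bp for peaks near neither.

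The senescent list was compared with the proliferating one to see how R-loops along these genes differ in Ras-induced senescence. Of the 198 members, 104 (52.5%, 45.6 to 59.4) had fewer body peaks in the senescent list, against 35% of all genes tested, and 44 (22.2%, 17.0 to 28.5) had more, against 16.7%. The remaining 50 were equal, 26 of them at 0 in both. In the 300 to 600 kb class 54.5% had fewer and 25.7% more. This direction rests on the full lists. With equal numbers of the highest-scoring peaks, 14.1% of members had fewer and 26.3% more, and with the top-scoring proliferating peaks that cover as many bases as the senescent peaks, 1.01% had fewer and 77.8% more. The state of the cells and the size of the lists cannot be told apart.

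In the full lists the ratio of senescent to proliferating body peaks was somewhat higher in the members than in each shorter class. It did not rise steadily with length. Genes under 10 kb had 0.822, genes of 10 to 30 kb 0.813 and genes of 30 to 100 kb 0.785. The senescent list held 0.845 times as many body peaks in members as the proliferating list, against 0.791 in genes of 300 to 600 kb, 0.727 in genes of 100 to 300 kb and 0.774 over all genes. With equal numbers of peaks these ratios were 1.37, 1.35, 1.17 and 1.31, and at equal covered length 2.49, 2.39, 2.10 and 2.36. With only the peaks that reached their list's median score, the ratio of the members was 0.808, below the 0.838 of all genes. Among genes with at least 5 body peaks in both lists together, 16 of 146 members (11.0%, 6.86 to 17.1) had at least 2-fold fewer in the senescent list, against 25.6% of all genes tested and 24.8% (20.8 to 29.3) of the 300 to 600 kb class. At least 2-fold more were found in 7 members (4.79%, 2.34 to 9.57), against 6.9% and 7.67%. The members tested had a median of 21 body peaks in both lists together, the 300 to 600 kb class 18 and all genes 10. These counts were not matched.

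The largest drops in number were in FOXP1, from 56 to 25 body peaks, in LPP, from 56 to 26, in CDH13 and NAV2, from 38 to 19 and from 73 to 54, and in GLIS3, from 37 to 20. Among these 5, FOXP1, LPP and CDH13 went to 50% or less of their proliferating number. All 5 had a gene-end peak in both lists. GMDS went from 18 to 7.

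More body peaks in the senescent list were seen in GRID1 (chromosome 10, 85599552 to 86366795), with 6 proliferating and 21 senescent peaks, and FSTL4, a secreted protein of the follistatin type, with 18 and 32. RANBP2 went from 93 to 106. ALK, a receptor tyrosine kinase, had 20 and 28, and MACROD2 4 and 12. The highest senescent body score in GRID1 was 20, against 37 in both FSTL4 and ALK. Of the 16 listed nuclear genes, 11 had fewer, 1 more and 4 equal numbers of senescent body peaks, beside 52.5% fewer and 22.2% more over all members. With lists of equal size this direction turned over all members, and it was not recomputed for this list.

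**Figure D5:**
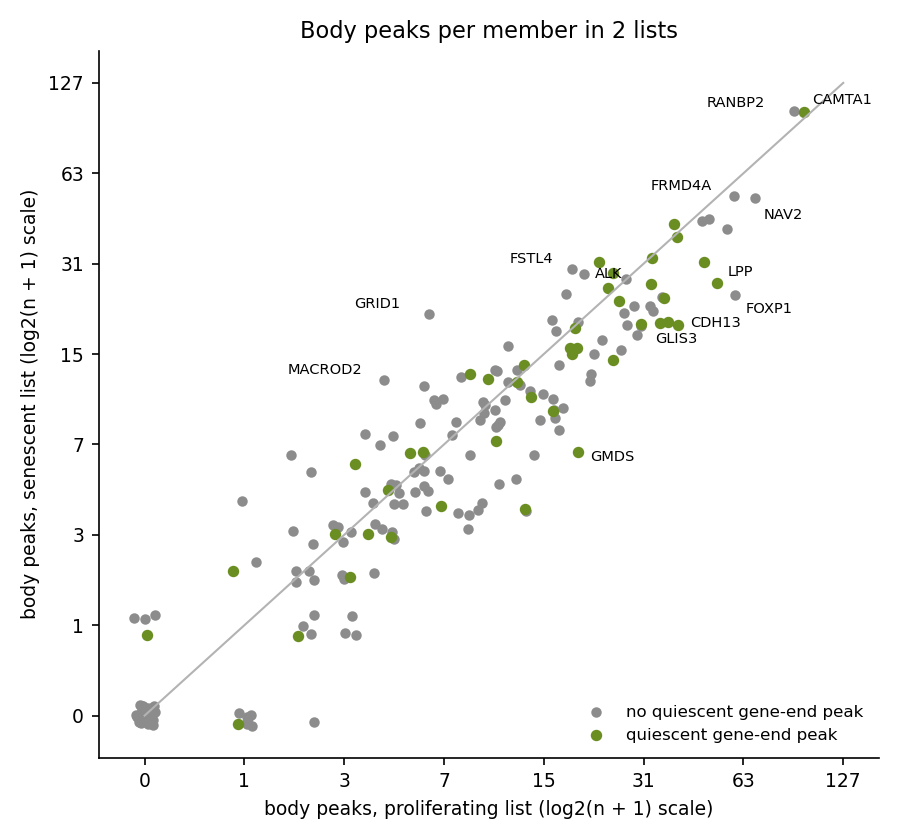
Body peaks per member in the proliferating list (x axis) and the senescent list (y axis), both on a log2(n + 1) scale with a small random shift so that equal points can be seen; the line marks equal numbers. Green points are the 43 members with a quiescent gene-end peak. FOXP1 (56 and 25) and LPP (56 and 26) lie below the line, and GRID1 (6 and 21) and MACROD2 (4 and 12) above it.

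Single body peaks were shared less often between the lists than gene-end peaks. Of 2437 distinct proliferating body peaks in members, 40.6% (38.6 to 42.5) overlapped a senescent peak by at least 1 bp, and of 2059 senescent body peaks 51.0% (48.8 to 53.2) overlapped a proliferating one. In all other genes the shares were 43.7% (43.3 to 44.2) and 63.8% (63.3 to 64.3). Gene-end peaks of members were shared in 77.9% and 85.2%. They were wider than the body peaks of members, with medians of 1362 against 475 bp (proliferating) and 753 against 395 bp (senescent). The body shares depend on the lists and the overlap: they were 21.0% and 24.9% with 50% of both peaks overlapping, 29.1% and 21.3% with equal numbers of peaks, and 62.1% and 28.2% at equal covered length, and the last 2 settings turn which list is shared more. The median width of senescent body peaks was 395 bp in members and 444 bp over all genes, with the same median score of 18. The part of width in the lower sharing was not tested.

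By an overlap of 1 bp nearly all quiescent peaks of members were in the proliferating list, as in other genes. The share of quiescent body peaks with a senescent partner was lower in members than in other genes. Of 81 distinct quiescent body peaks, 79 overlapped a proliferating and 67 a senescent peak, and 67 peaks in 42 members were found in all 3 lists. In other genes 99.3% of 2944 quiescent body peaks overlapped a proliferating and 94.3% a senescent peak, against 97.5% and 82.7% (73.1 to 89.4) in members. All 51 quiescent gene-end peaks overlapped peaks of both other lists. With equal numbers of peaks 51.9% of the quiescent body peaks had a proliferating partner, and with 50% of both peaks required to overlap 12.3% did, so the overlap rests on the full proliferating list and on counting 1 shared bp. The quiescent list held 0.0333 times as many body peaks in members as the proliferating list, against 0.0357 in the 300 to 600 kb class and 0.0624 over all genes.

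The highest quiescent body peak was in NAV2, with a score of 77, 767 kb from the start and 98.8% along the gene. The next, in OPCML, an IgLON adhesion protein without a gene-end peak in any list, had 74 and lay 468 kb inside. The KLF12 peak at an internal start, with 52, followed. MARCHF1 had one of 43 without a senescent partner, and RIMS2, a scaffold of the presynaptic active zone, had one of 42. CDH4 had a quiescent body peak of 40 and PRKG1 one of 39, both within 2 kb of the start and just outside the gene-end window. FRMD4A had one of 37, 618 kb inside, and NBAS one of 37, 391 kb inside. RARB had one of 36 at 99.5% of its length. Each of these except the MARCHF1 peak was found in all 3 lists.

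The genes nearest to the length threshold are given as a description. Just inside were TMEM117 (603 kb) with 2, 6 and 0 body peaks in the proliferating, senescent and quiescent lists, ADGRV1 (606 kb), a very large adhesion receptor, with 6, 8 and 0, and PRELID2 (606 kb) with 14, 6 and 0. Just outside were STK3 (599 kb), a kinase of the Hippo pathway, with 16, 17 and 1, SNX29 (598 kb) with 29, 26 and 1 and AFF3 (597 kb), a transcriptional activator, with 32, 18 and 0.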

How the data were processed

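MapR peak lists of 3 RH-MNase libraries were used. Each deposited list gives the position of each peak and a score set by the authors, with whole values from 10 upward on an unstated scale. Scores served only for ranking peaks inside 1 list. FastQC 0.11.9, Bowtie2 2.4.5, MACS2 2.2.7.1 and the build GRCh38 were used, per the submitters' processing notes. Their settings, and what the GST-MNase libraries served for, are not stated in those notes. Read depth is unknown.

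Gene extents came from a RefSeq table of GRCh38.p14, and strand and internal starts from RefSeq promoter sequences. A peak within 1000 bp of an annotated end was a gene-end peak, and any other peak overlapping the gene was a body peak. A peak in 2 overlapping genes counted in both. Counts were made with Python 3.11.15, pandas 2.3.3, numpy 2.4.6 and scipy 1.17.1, and figures with matplotlib 3.10.9. The counting was tested on simulated peaks placed in the 198 members, and 196 were recovered exactly. The other 2, IQCJ-SCHIP1 and SCHIP1, overlap each other.

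The members and role lists were chosen with earlier results of these data known. The 7 role lists and the fragile site list were written from general knowledge. Genes were named by rule: the 10 longest, the 5 with the most body peaks and the most per Mb in the proliferating and senescent lists, the 5 largest rises and falls, up to 15 with a quiescent and 10 with a senescent-only gene-end peak by score, the 10 longest without peaks, up to 4 of each role list, the 3 on each side of the threshold and those whose sequence is printed. Some genes that this rule takes are not reported here. Names with internal starts or single high peaks, among them ROBO1, KLF12, ESRRG, ADGRL2, KAZN, THSD4, OPCML, RIMS2 and SOX6, as well as MARCHF1, and the receptor list without GRID1 were chosen after their values were seen. Alternatives were other peak selections, gene-end windows, length thresholds and overlaps.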

Additional observations from a re-analysis of the deposited data

How the results depend on the processing

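Of 122 values recomputed for 13 results under the alternatives, 75 stayed within the 95% counting interval of the reported value and 47 moved. Some of the 75 could not move, so their number is no measure of stability. Leaving out peaks wider than 20000 bp kept 101801 of 101802 proliferating peaks and changed none of the 13 results. Equal covered length left the senescent and quiescent lists as they were, and equal numbers left the quiescent list as it was. The share of body peaks in the distal 50% ranged from 61.7% to 73.5% over both lists and all alternatives. No paired analysis was possible because each state is 1 library. The depth of each library is unknown, so the precision beyond counting error is too, and leaving out a replicate could not be done.

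In the order proliferating, senescent and quiescent, peaks at or above the median score gave gene-end peaks in 51.5%, 46.0% and 15.2% of members and 6.01, 4.85 and 0.219 body peaks per Mb. Fewer senescent than proliferating body peaks were then found in 43.4% of members, the proliferating distal share was 67.5%, and 35.4% of proliferating and 47.1% of senescent body peaks were shared. Equal numbers of the highest-scoring peaks gave gene-end peaks in 20.7% and 15.7% of members in the proliferating and senescent lists, 0.579 and 0.793 body peaks per Mb, 14.1% of members with fewer, distal shares of 73.5% and 70.0%, and sharing of 29.1%, 21.3% and 51.9% (proliferating with senescent, senescent with proliferating, quiescent with proliferating). The proliferating list at the covered length of the senescent list gave gene-end peaks in 44.9% of members, 4.36 proliferating body peaks per Mb, 1.01% of members with fewer and 77.8% with more, a distal share of 67.7% and sharing of 62.1%, 28.2% and 87.7%. In these last 2 alternatives the senescent density was above the proliferating one. At equal covered length only the proliferating list was shortened, to 40460 peaks. With equal numbers the proliferating and senescent lists were both cut to 9736 peaks, and the cause was not tested.

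A window of 500 bp lowered the quiescent gene-end share to 15.7%. Genes of 500 kb or more (297) had 14.99, 12.6 and 0.537 body peaks per Mb and distal shares of 62.8% and 61.7%, and genes of 800 kb or more (117) had 9.89 and 8.56 per Mb and distal shares of 67.8% and 68.0%. Counting peaks as shared only where 50% of each was overlapped lowered the sharing to 21.0%, 24.9% and 12.3%. Without peaks near an end of another gene the densities were 12.02, 10.1 and 0.329 per Mb. Without the 10 members with the most body peaks, chosen after the data were seen, they were 9.99, 8.39 and 0.285.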

Other observations

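Some of the highest body peaks of the very long genes lay near no annotated start. SOX6, a transcription factor of cartilage and muscle, held the highest proliferating body peak, with a score of 105 over 4619 bp, 132 kb from its start (chromosome 11, 16603951 to 16608569), and it was found in all 3 lists. SOX6 had 13, 4 and 3 body peaks in the proliferating, senescent and quiescent lists. The highest senescent body peak, with 64, was in AGAP1 (chromosome 2, 235642291 to 235642762), a gene with 33, 26 and 0 body peaks. CAMTA1 held a proliferating peak of 96, 686 kb inside, and DLGAP1 one of 90, 684 kb inside. OPCML had senescent peaks of 52 and 49, at 468 and 658 kb, and the second had no proliferating partner. The MARCHF1 quiescent peak of 43 lay at 97.6% of the gene's length.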
